A study of Macaca fascicularis with 48 samples.

Results

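The genes described here serve acetylcholine transmission or mark motor neurons: CHAT, SLC18A3, SLC5A7, ACHE, ISL1, MNX1 and CARTPT. They were chosen by name, as rows of the deposited count table, and 6 of the 7 were present among its 16842 gene names. MNX1, a homeobox gene of developing motor neurons, was not analysed here. The RNA came from cynomolgus monkeys (Macaca fascicularis) dosed orally for 13 weeks with GS-8873, named by the submitters as inhibiting mRNA of hepatitis B virus. The dose was 6 mg/kg/day in the treated group and 0 mg/kg/day in controls, and no allele, transgene or age is given in the labels. The 48 libraries covered cervical, thoracic and lumbar spinal cord, cervical and lumbar dorsal root ganglia, and liver, with 4 control and 4 treated libraries per tissue, from 2 males and 2 females each. The same 4 control animals gave every tissue, whereas the treated ganglia came partly from other animals than the treated cords, so that the sample labels name 4 control and 6 treated animals, although the design text counts 8 in all.

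Acetylcholine is the transmitter of the motor neurons of the ventral horn and of the preganglionic neurons of the sympathetic system, whose cell bodies lie mostly in thoracic cord. CHAT encodes choline acetyltransferase, which makes the transmitter. SLC18A3 encodes the vesicular transporter that loads it, SLC5A7 the high-affinity choline transporter of the nerve ending, and ACHE the esterase that breaks acetylcholine down. ISL1 is a LIM homeobox factor of motor neurons and also of sensory neurons, and CARTPT encodes the precursor of the CART peptides, which sympathetic preganglionic neurons are among the cells known to make. Dorsal root ganglia hold the cell bodies of sensory neurons, which do not use acetylcholine as their main transmitter.

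On the Macaca_fascicularis_5.0 build, CHAT lay on the minus strand of chromosome 9 from 45405309 to 45457927. SLC18A3 was a gene of 1 exon on the same strand, from 45459634 to 45461232, with 1706 bases between the 2 annotated genes. CHAT and SLC18A3 together are known as the cholinergic gene locus, and the gap between them is that of this annotation. SLC5A7 lay on chromosome 13 (12304282 to 12332223, plus strand) and ACHE on chromosome 3 (45189713 to 45195575, minus strand). ISL1 (50670187 to 50681496) and CARTPT (69858181 to 69860818) both lay on the plus strand of chromosome 6.

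Libraries held between 35453786 and 53480762 counts, both mates of a pair being counted. Levels are counts scaled to library size (CPM) with the TMM method over all 48 libraries. Ganglia and liver carried the markers of their labelled tissue: the summed CPM of 7 sensory neuron markers was 755 to 3332 in the 16 ganglion libraries and at most 14.3 in cord. Of the 24 cord libraries, lumbar control 1 and lumbar treated 1 went against their label. They held 0.213 and 0.0716 CPM of the oligodendrocyte gene MOG, against 260 to 1426 in the 22 others. Cervical cord control 1 held central myelin and astrocyte genes, with MOG at 555 CPM, but a summed interneuron marker level of 3.66 CPM, against 42.02 to 673 in the 21 remaining cord libraries. These 3 libraries are kept under their labels below, and values without them are given beside the main cord results. The share of mitochondrial counts was above 30% in 3 libraries, all thoracic cord (control 4, treated 1 and treated 4). Treated 4 also had the highest share of its tissue in cervical cord (25.66%), lumbar cord (27.04%) and cervical ganglia (23.01%), all from the same animal. The cervical ganglion library of this animal had the lowest total count of all.

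**Figure D1:**
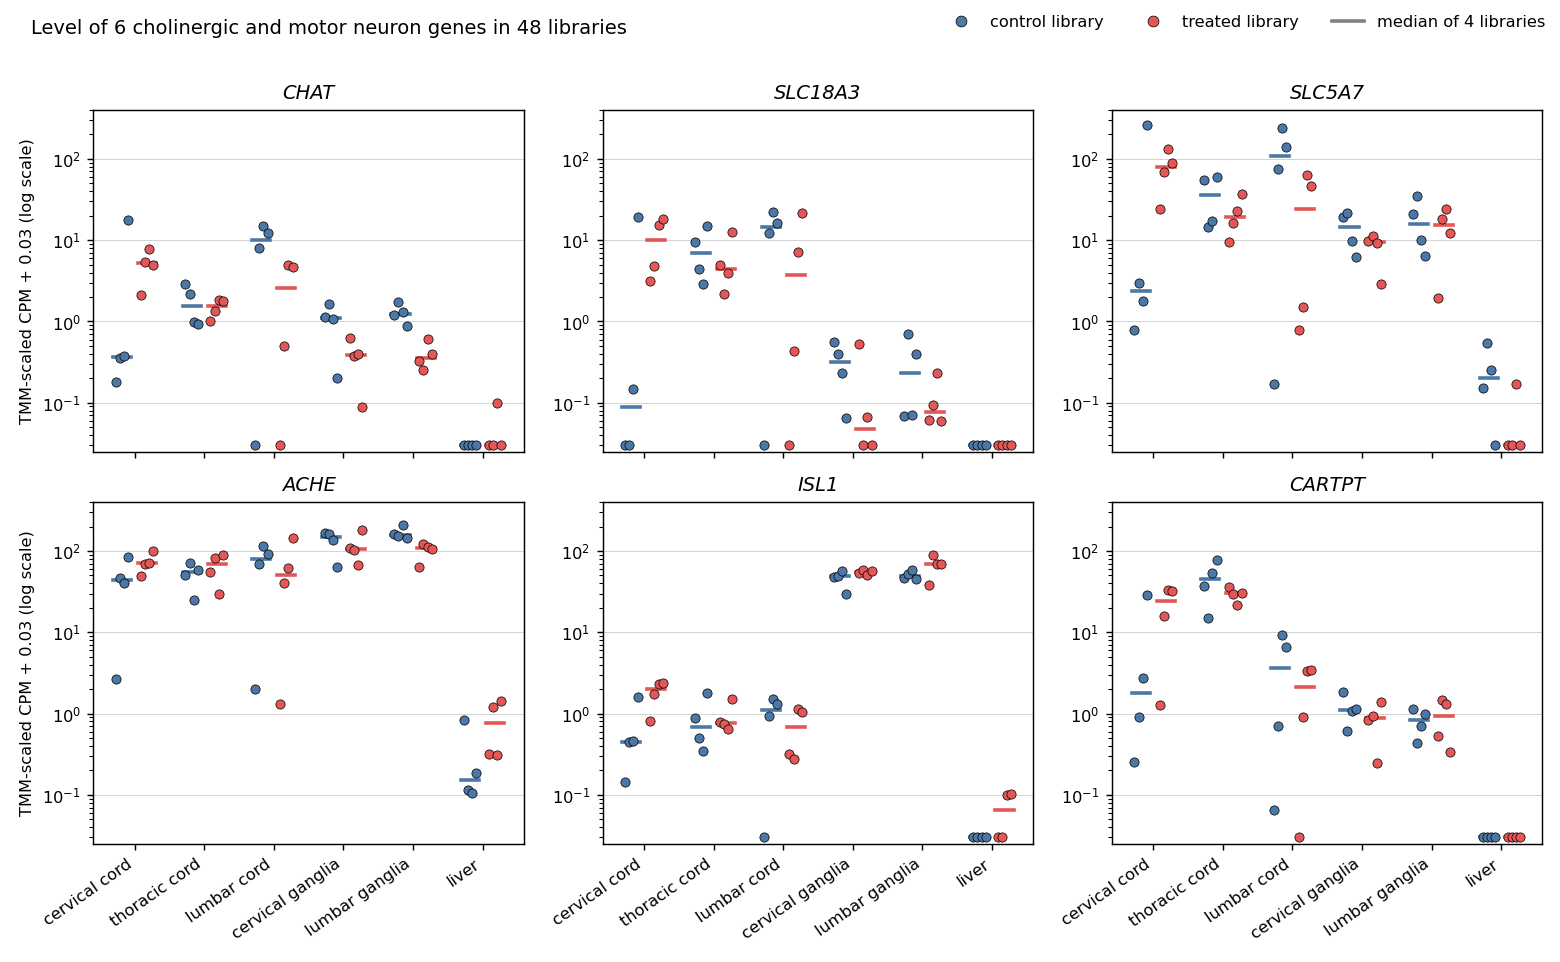
Level of each gene in each of the 48 libraries, as TMM-scaled CPM plus 0.03 on a log axis, by tissue (x axis), with control libraries in blue, treated libraries in red and the median of each group of 4 as a bar. The highest single levels of CHAT, SLC18A3, SLC5A7 and CARTPT were in cord, with the widest spread on this axis in cervical and lumbar cord. In control animals the cervical cord medians of CHAT and SLC5A7 lay below those of cervical ganglia. ISL1 was highest in ganglia, and no gene passed 1.41 CPM in liver.

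The 3 genes of acetylcholine synthesis, uptake and loading reached their highest levels in cord, and varied most between libraries of cervical and lumbar cord. In cervical cord the 4 controls held 0.151, 0.325, 0.3495 and 17.55 CPM of CHAT and the 4 treated libraries 2.09, 5.395, 7.71 and 4.94 CPM. One control was thus the highest of the 8, and the 3 other controls lay below every treated library. In thoracic cord the CHAT levels were narrower, with 2.86, 2.12, 0.964 and 0.897 CPM in controls and 0.986, 1.31, 1.82 and 1.75 CPM in treated libraries, and the groups overlapped. In lumbar cord CHAT reached 0, 8.01, 14.8 and 12.2 CPM in controls and 0, 0.469, 4.85 and 4.63 CPM in treated libraries. The 2 zeros were the 2 lumbar libraries that lacked cord markers, where the limit taken for a count of 0, 3 counts, equals 0.0532 and 0.0537 CPM. Both mates of a pair were counted, so the true limit may be higher. Leaving those aside, the 3 lumbar controls lay above the 3 treated libraries in CHAT, as they did in SLC5A7 but in none of the 4 other genes, and 4.52% of all genes tested were lower in treated animals without overlap of the same 6 libraries.

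SLC18A3 was low in the same cervical and lumbar libraries as CHAT. The cervical controls held 0, 0, 0.1165 and 19.4 CPM and the treated libraries 3.14, 4.76, 15.53 and 18.35 CPM. Here too the fourth control was the highest and the other controls were near 0, although cervical controls 2 and 3 had cord and neuron markers. Lumbar cord gave 0, 12.3, 22 and 16.4 CPM in controls and 0, 0.3995, 7.025 and 21.8 CPM in treated libraries. Thoracic cord held SLC18A3 in all 8 libraries, at 9.43, 4.42, 2.83 and 14.8 CPM in controls and 4.93, 2.16, 3.91 and 12.7 CPM in treated animals, with the fourth library of each group highest.

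SLC5A7, the choline transporter, had more reads than CHAT in every cord library and was low in the same libraries. Its cervical levels were 0.755, 2.90, 1.75 and 263 CPM in controls and 24.3, 69.4, 133.5 and 88.5 CPM in treated libraries. Its lumbar levels were 0.142, 75.2, 241 and 138.5 CPM and 0.752, 1.46, 62.6 and 46.4 CPM in the same order. The second treated lumbar library, which did carry MOG and GFAP, was also low in SLC5A7, as was the first treated library, which did not. Thoracic levels were 55.2, 14.3, 17.3 and 59.25 CPM in controls and 9.36, 16.15, 22.75 and 36.6 CPM in treated libraries, so that no thoracic library was near 0.

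ACHE was spread more evenly. Apart from the 3 libraries named above, which held 1.29 to 2.66 CPM, ACHE ran from 25.03 to 146 CPM over the 21 other cord libraries. It was higher in ganglia, at 63.2 to 207 CPM over the 16 ganglion libraries, and at most 1.41 CPM in liver. The ACHE levels of ganglia and cord thus overlapped.

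ISL1 was higher in every ganglion library than in any cord library. It ran from 29.6 to 88.6 CPM in the 16 ganglion libraries and did not exceed 2.36 CPM in any cord library. CARTPT reached its highest levels in cord, with the lowest thoracic level, 14.85 CPM, above the highest lumbar level, 9.15 CPM. Thoracic controls held 36.65, 14.85, 53.3 and 76.5 CPM and thoracic treated libraries 35.6, 29.45, 21.3 and 30.8 CPM. Cervical CARTPT was 0.226, 0.8875, 2.68 and 28.35 CPM in controls and 1.24, 16.04, 33.6 and 31.8 CPM in treated libraries, so that it overlapped both other regions.

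Compared per length, as RPKM, which divides the CPM by the kilobases of the gene's exons, the order of the genes differed by tissue. The median RPKM over the 8 thoracic libraries was 19.9 for CARTPT, 14.5 for ACHE, 3.84 for SLC5A7, 2.92 for SLC18A3, 0.482 for CHAT and 0.296 for ISL1. The ranges of CARTPT (8.92 to 45.9) and ACHE (6.35 to 22.5) overlapped, as did those of SLC5A7 and SLC18A3, while CHAT stayed below SLC18A3 in each region's median. Over the 8 lumbar libraries, the 2 that lacked cord markers among them, the medians were 16.6 for ACHE, 10.4 for SLC5A7, 6.05 for SLC18A3, 1.498 for CHAT, 1.27 for CARTPT and 0.385 for ISL1. In lumbar ganglia ACHE and ISL1 led, with median RPKM of 33.8 and 22.1, SLC5A7 followed at 2.93, and CARTPT, CHAT and SLC18A3 were below 0.5.

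The cord libraries differed in more than these genes, and the values of other cell types are given beside them. Cervical controls 2 and 3, with CHAT at 0.325 and 0.350 CPM, had summed pan-neuron marker levels of 1767 and 1238 CPM (6 genes, SNAP25 and RBFOX3 among them), within the 1093 to 1627 CPM of the treated libraries or above it. Per 1000 CPM of these neuron markers, CHAT was 0.184 and 0.282 CPM in those 2 libraries and 1.91 to 6.88 CPM in cervical control 4 and the 4 treated libraries. Their summed interneuron marker levels were 485 and 290 CPM, against 206 to 544 CPM in the same 5 libraries. Lumbar treated 2 was alike, with 925 CPM of neuron markers, 287 CPM of interneuron markers and 0.507 CPM of CHAT per 1000 CPM of neuron markers, against 2.98 to 5.17 in the 5 other lumbar libraries with cord markers. In thoracic cord the same ratio stayed between 1.01 and 3.77. Which part of each cord segment the tissue was taken from is not given in the labels, and its part in these levels was not tested. In such bulk samples, fewer cells of a type and less RNA per cell cannot be told apart.

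**Figure D2:**
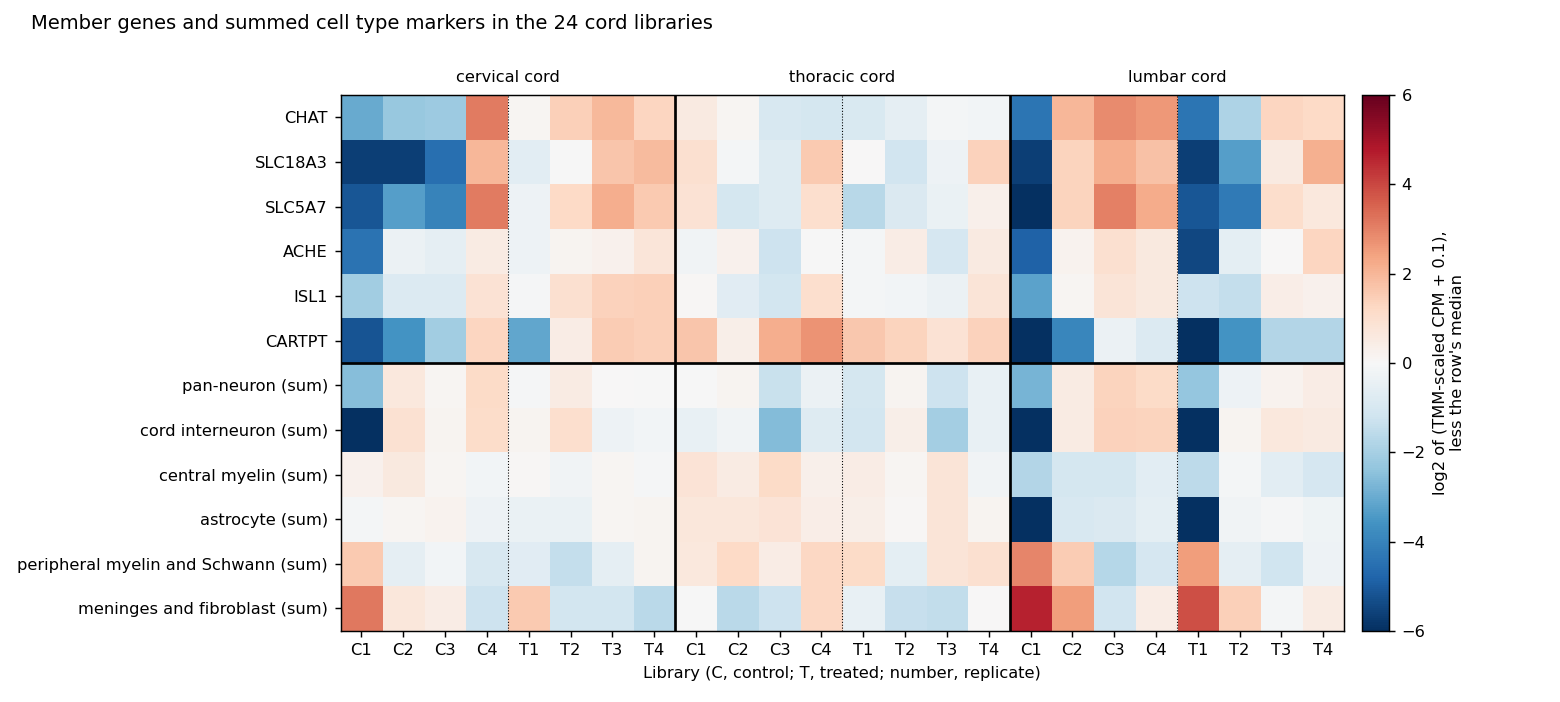
The 6 genes and the summed levels of 6 marker lists in the 24 cord libraries (columns, C control and T treated with replicate number), as log2 of CPM plus 0.1 less the row's median, red above and blue below it. Cervical C2 and C3 and lumbar T2 are low in CHAT, SLC18A3 and SLC5A7 but not in pan-neuron or interneuron markers, whereas cervical C1 and lumbar C1 and T1 are low in both.

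Over the 24 cord libraries, the gene whose log2 level was most like that of CHAT was another of the listed genes, SLC5A7 (Pearson r = 0.952, and 0.918 over 21 libraries without the 3 that stood apart). Then came AARS2, a mitochondrial alanyl-tRNA synthetase (0.938 and 0.855), SLC29A4, a monoamine transporter (0.915 and 0.813), FREM3, an extracellular matrix protein (0.911 and 0.86), and NEFM, the medium neurofilament subunit (0.906 and 0.781). Among 13002 genes searched these were the first 5. These points share their libraries, 3 from each of 8 animals, so the coefficients are descriptions. Against CHAT, SLC18A3 had an r of 0.894 and ISL1 of 0.823, or 0.797 and 0.706 over the 21 libraries. CARTPT had an r of 0.626 with CHAT over 24 libraries but 0.134 over 21. SNAP25, a gene of all neurons, had 0.817 and 0.564, and the interneuron gene GAD1 0.791 and 0.364.

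Cord regions were compared within the 8 animals, each animal being its own block. CARTPT was the 1 gene of the 6 that passed between lumbar and thoracic cord. It was lower in lumbar than in thoracic cord in 8 of 8 animals, with a log2 fold change of -4.85 ± 1.02 (SE) and an adjusted p of 0.00116 (edgeR quasi-likelihood test, Benjamini-Hochberg adjustment over all genes). The mean level fell from 37.3 ± 19.49 CPM (SD, n = 8) to 3.00 ± 3.34 CPM. Without the libraries that stood apart the value was -3.70 ± 0.75 with an adjusted p of 0.00146. Between these regions 49.8% of all 14748 genes tested passed, 23.9% of all as higher and 25.9% as lower in lumbar cord, and 2.07% were lower with no overlap between the 8 and 8 libraries. The 1 call among 6 genes is below that background share. Without the libraries that stood apart 49.9% passed.

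The 5 other genes did not pass between lumbar and thoracic cord, but the spread was wide. CHAT had a log2 fold change of 0.94 ± 1.30 (SE) (adjusted p = 0.574), and was higher in lumbar cord in 5 of 8 animals. Without the 3 libraries that stood apart it was 2.14 ± 0.85, with an adjusted p of 0.0501. SLC18A3, ACHE and ISL1 had values of -0.14, -0.40 and -0.36 over all libraries, which turned to 1.14, 0.61 and 0.39 without those libraries, none past the threshold. SLC5A7 gave 0.52 ± 1.475 (SE) with all libraries and 1.80 ± 1.02 without those 3.

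Between thoracic and cervical cord, CARTPT was higher in thoracic cord, with a log2 fold change of 2.59 ± 0.99 (SE) and an adjusted p of 0.0484, and higher in 6 of 8 animals. This call was lost without the libraries that stood apart (1.65 ± 0.69, adjusted p = 0.0623), and without any of 6 of the 8 animals (adjusted p up to 0.119). It was also lost without the 3 thoracic libraries of high mitochondrial share. In this comparison 39.4% of 14748 genes passed, 22.4% of all as higher and 17% as lower in thoracic cord, and 47% without the libraries that stood apart. The other members did not pass, CHAT having -0.93 ± 1.21 (SE) (adjusted p = 0.575). Between lumbar and cervical cord none of the 6 passed in edgeR (0.136% of all genes did, and 0.102% without the libraries that stood apart), and CARTPT, at -2.26 ± 0.95 (SE) with an unadjusted p of 0.0298 and an adjusted p of 0.222, was the 1 member that passed in DESeq2.

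Other genes of motor neuron identity and cholinergic signalling were read by 3 lists. Of 22 tested genes of motor neuron identity and subtype, 5 passed as higher and 1 as lower in lumbar than in thoracic cord (median log2 fold change 0.29, against 0.01 over all genes), and 10 and 1 without the libraries that stood apart. Over all genes 23.9% passed as higher and 25.9% as lower with all libraries, so the 5 of 22 is near the background share. Without the libraries that stood apart 49.9% of all genes passed in either direction. GFRA1, the co-receptor of GDNF, rose by 1.95 ± 0.25 (SE) on the log2 scale, FBN2, a fibrillin, by 1.73 ± 0.31, and FOXP1, a factor of limb motor neurons, by 0.85 ± 0.17. SPP1, osteopontin, which macrophages also make, fell by 1.44 ± 0.29. The adjusted p-values of GFRA1, FBN2, FOXP1 and SPP1 were 4.35e-05, 0.000374, 0.000969 and 0.000877 (edgeR).

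Between thoracic and cervical cord 0 of the 22 passed as higher and 5 as lower, or 0 and 7 without the 3 libraries, where 22.4% and 17% of all genes passed as higher and lower with all libraries. Without those 3 libraries 47% of all genes passed in either direction. GFRA1 fell by 1.21 ± 0.25, FOXP1 by 0.61 ± 0.17, TNS1, a focal adhesion protein, by 1.17 ± 0.39 and VIPR2, a receptor of vasoactive intestinal peptide, by 1.25 ± 0.48. Their adjusted p-values were 0.00135, 0.0105, 0.0255 and 0.0458. The 2 comparisons share the thoracic libraries. Markers of other cells moved between these regions as well. In lumbar against thoracic cord, 5 of 6 central myelin genes fell and 4 of 6 peripheral myelin and Schwann genes rose, or 6 and 4 without the libraries that stood apart. Without those libraries 5 of 6 pan-neuron and 6 of 7 interneuron markers also rose from thoracic to lumbar cord, against 1 and 0 with them. Of all genes 49.8% passed in either direction in lumbar against thoracic cord with all libraries, and 49.9% without those that stood apart. In thoracic against cervical cord 4 of 7 interneuron, 2 of 6 pan-neuron and 3 of 4 endothelial markers fell without those libraries, against 0, 0 and 3 with them. The part of these cell types in the values of the lists was not tested.

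Of 17 tested acetylcholine receptor genes, 2 rose and 1 fell from thoracic to lumbar cord (median 0.13), and 7 and 1 without the libraries that stood apart (median 0.98). Over all genes 23.9% passed as higher and 25.9% as lower with all libraries, and 49.9% passed in either direction without those that stood apart. The receptor counts, in either direction, thus lay below the share of all genes with all libraries, and near it without those. CHRNB1, the beta subunit of the muscle-type nicotinic receptor, fell by 1.01 ± 0.17 (adjusted p = 0.000249), while CHRNG, the subunit of the fetal muscle receptor, and CHRNA5 rose by 1.51 ± 0.51 and 1.09 ± 0.37. CHRNG was low, at 0.267 ± 0.1145 CPM (SD, n = 8) in lumbar cord. Of 9 genes of choline supply, breakdown and receptor assembly, 1 rose and 3 fell, or 2 and 3 without the libraries that stood apart. In either direction these counts lay near the share of all genes. The choline transporter SLC44A1 fell by 1.28 ± 0.21, PEMT, which makes phosphatidylcholine, by 1.24 ± 0.23 and the choline kinase CHKB by 0.37 ± 0.10, and LYNX1, a modulator of nicotinic receptors, rose by 0.88 ± 0.32. Between thoracic and cervical cord CHRNB1, CHRNE, a subunit of the adult muscle receptor, and PEMT were higher in thoracic cord, by 1.01 ± 0.17, 0.80 ± 0.20 and 1.22 ± 0.23. CHKB was also higher there, by 0.42 ± 0.10, and CHKA fell by 0.49 ± 0.10. These were 2 receptor genes higher and 0 lower and 2 choline genes higher and 1 lower, which became 2 and 2 in both lists without the libraries that stood apart. Of all genes 22.4% passed as higher and 17% as lower there, and 47% in either direction without those libraries. Between lumbar and cervical cord no gene of the identity, choline and receptor lists passed in edgeR (4, 2 and 0 genes had an unadjusted p under 0.05), and DESeq2 called FBN2, GFRA1, SPP1 and SLC44A1.

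Ganglia were compared with cord of the same region in the 4 control animals. ISL1 was higher in cervical ganglia, at 45.9 ± 11.4 CPM (SD, n = 4) against 0.631 ± 0.644 CPM in cervical cord, and higher in lumbar ganglia, at 50.4 ± 5.63 against 0.914 ± 0.655 CPM. The log2 fold changes were 6.665 ± 0.89 (SE) (adjusted p = 0.00865) and 6.20 ± 1.22 (SE) (adjusted p = 0.0362) in edgeR, and no cord library reached a ganglion library. Of all genes, 34.9% passed in the cervical and 19% in the lumbar comparison, 16% and 9.35% of all as higher in ganglia and 18.9% and 9.66% as lower. Groups that did not overlap, with ganglia higher, were found for 19.4% and 20.3% of all genes. Leaving out animals 2 or 3 in the cervical comparison, or 2, 3 or 4 in the lumbar comparison, raised the adjusted p to between 0.0595 and 0.164, with log2 fold changes between 6.45 and 6.71.

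The other members depended on the lumbar library that lacked cord markers. With all 4 control animals, none of the 5 passed in edgeR in lumbar ganglia against lumbar cord, CHAT having -2.18 ± 1.98 (SE) (adjusted p = 0.468) and SLC18A3 -5.19 ± 1.68 (SE) (adjusted p = 0.0963). DESeq2 called SLC18A3 as lower in ganglia there, beside ISL1 as higher. Without lumbar cord control 1 all 6 passed, where 34.7% of all genes did. CHAT, SLC18A3, SLC5A7 and CARTPT were then lower in ganglia, with log2 fold changes of -3.22 ± 0.40, -5.71 ± 0.89, -3.49 ± 0.88 and -2.54 ± 0.66 and adjusted p-values from 0.00877 to 0.0453. ACHE was higher in ganglia by 0.86 ± 0.14 (adjusted p = 0.0143) and ISL1 by 5.398 ± 0.20 (0.00165). In the cervical pair, the 5 other genes did not pass in edgeR with or without cervical cord control 1, with 29.9% of all genes passing without it. DESeq2, with all libraries, called ACHE beside ISL1 as higher in cervical ganglia. CHAT was 1.13 ± 1.86 (SE) and then 0.09 ± 2.12, and cervical controls 2 and 3 held less CHAT than their own ganglia. Without animal 4, the 1 control with high cervical CHAT, CHAT and SLC5A7 passed as higher in ganglia, by 2.26 ± 0.42 (adjusted p = 0.0206) and 3.33 ± 0.56 (0.0175). In the cervical pair 34.9% of all genes passed with all libraries, and the number of genes varied widely over the fits with an animal left out (closing section).

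**Figure D3:**
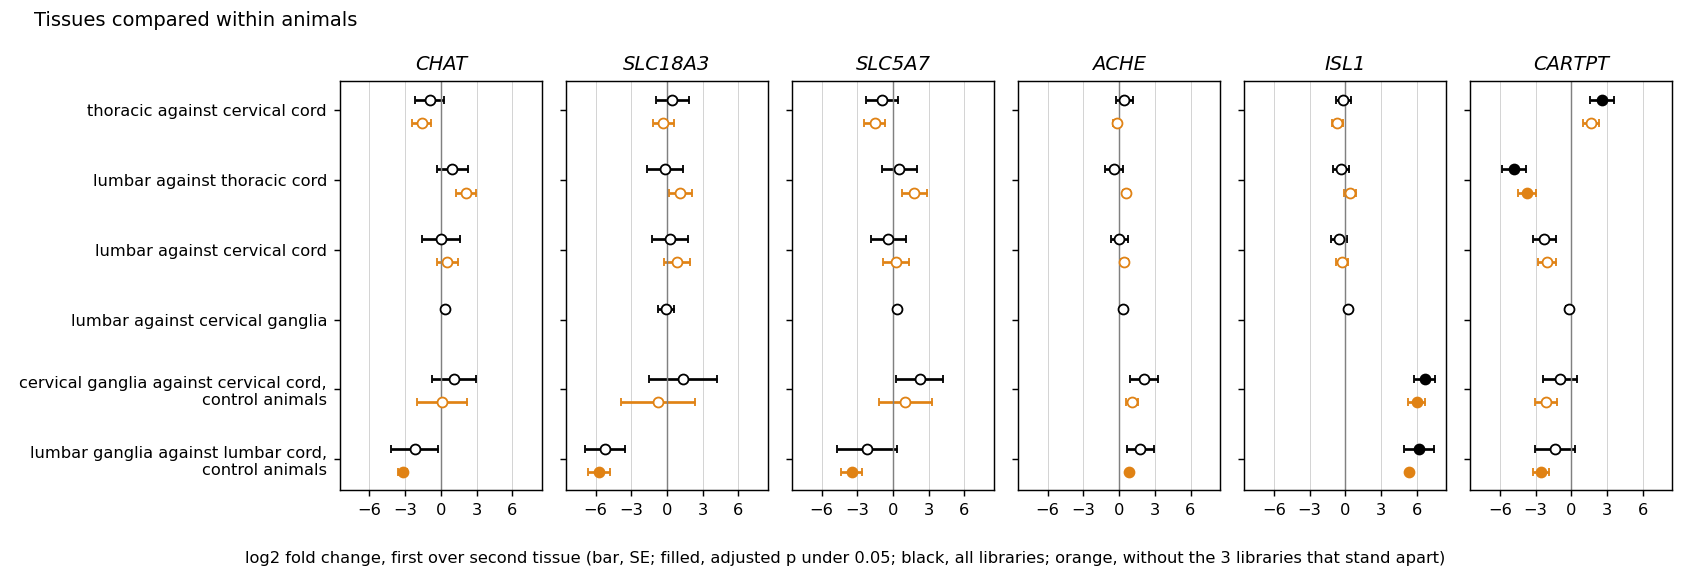
Log2 fold change of each gene between tissues of the same animals (points, bars SE), filled where the adjusted p was under 0.05, in black with all libraries and in orange without the 3 cord libraries that stood apart. ISL1 is far to the right in both ganglion rows, CARTPT far to the left in lumbar against thoracic cord, and all 6 orange points of the lumbar ganglion row are filled.

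CHAT was low but present in ganglia. Cervical ganglia held 61, 95, 63 and 10 counts of CHAT in controls and 36, 20, 20 and 2 in treated libraries, and lumbar ganglia 61, 93, 61 and 44 and 19, 14, 34 and 24. Only 1 of the 16 libraries was at or under 3 counts. SLC18A3 had at most 36 counts in any ganglion library and was at or under 3 counts in 8 of the 16. SLC5A7 was clearer, at 19.1, 21.6, 9.635 and 6.185 CPM in cervical controls and 21.1, 35, 10.03 and 6.35 CPM in lumbar controls. Between lumbar and cervical ganglia no member passed in limma (0.179% of all genes did), although SLC5A7 was higher in lumbar ganglia in 6 of the 6 animals that gave both. ISL1 was the 1 member with an unadjusted p under 0.05 there (0.0314), with a log2 difference of 0.24 ± 0.10 (SE) and an adjusted p of 0.329. Over the 16 ganglion libraries the genes most like ISL1 were MFSD2B (r = 0.925), HS3ST5 (0.879), SQLE (0.879), TMEM206 (0.877) and CPNE9 (0.871), among 12821 genes searched.

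Several cholinergic receptor genes were higher in control ganglia than in cord. Of 17 tested receptor genes, 6 passed as higher and 0 as lower in the cervical pair and 5 and 0 in the lumbar pair, or 7 and 5 in the lumbar pair without lumbar cord control 1. Of all genes, 16% passed as higher and 18.9% as lower in the cervical pair, and 9.35% and 9.66% in the lumbar pair. Without lumbar cord control 1, 34.7% of all genes passed in either direction in the lumbar pair. CHRNA9, a nicotinic subunit, was 41.7 ± 14.04 CPM (SD, n = 4) in cervical ganglia against 0.696 ± 0.247 CPM in cord, a log2 fold change of 5.93 ± 0.43 (adjusted p = 0.00282), and 6.14 ± 0.33 in the lumbar pair. CHRNA3, of the ganglionic nicotinic receptor, gave 7.26 ± 0.59 and 5.96 ± 0.45. The inhibitory muscarinic receptor CHRM4 gave 5.28 ± 1.07 and CHRNE 1.31 ± 0.29 in the cervical pair, and CHRNA5 3.24 ± 0.35 and CHRNB4 3.83 ± 0.77 in the lumbar pair. Each of these values passed the test.

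Among 9 genes of choline supply and breakdown, 3 were higher and 2 lower in the cervical pair, and 3 and 1 in the lumbar pair. Without the cord libraries that stood apart, 1 was higher and 2 lower in the cervical pair, and 4 and 2 in the lumbar pair. Of all genes 34.9% passed in the cervical and 19% in the lumbar pair with all libraries, and 29.9% and 34.7% without those. BCHE, butyrylcholinesterase, was higher in ganglia by 2.47 ± 0.43 and 2.515 ± 0.32, and LYNX1 by 2.165 ± 0.51 and 1.38 ± 0.21, whereas SLC44A1 was lower (-2.91 ± 0.16 and -1.90 ± 0.32). CHKA was lower in the cervical pair (-0.86 ± 0.16) and PEMT higher in the lumbar pair (1.35 ± 0.20). Of 20 motor neuron identity genes, 6 were higher and 2 lower in the cervical pair and 3 and 1 in the lumbar pair. In either direction these counts lay near the shares of all genes. Without the cord libraries that stood apart the cervical counts were 7 and 2 of 20 and the lumbar counts 7 and 7 of 22, above those shares. Those higher included genes that sensory neurons also make: RET, the GDNF receptor kinase, by 3.21 ± 0.32 in the cervical pair, and ISL2 by 5.16 ± 0.65 and CALCA, the precursor of calcitonin gene-related peptide, by 6.15 ± 1.09 in the lumbar pair. GFRA1 was higher by 1.945 ± 0.18 and 1.36 ± 0.30. SLC10A4, a vesicle protein of cholinergic neurons, was lower in cervical ganglia (-4.56 ± 0.52), and ZEB2, a zinc finger factor, was lower in both pairs (-1.76 ± 0.225 and -1.05 ± 0.13).

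Treated and control animals were compared in each tissue with sex as a covariate. In cervical cord all 6 genes had positive log2 fold changes and none passed, as was true of all genes (0% of 14235 tested passed in edgeR, 1356 had an unadjusted p under 0.05, and DESeq2 called 108 genes and none of the 6). CHAT had 1.56 ± 1.48 (SE) (adjusted p = 0.662), SLC18A3 3.15 ± 1.91 (SE), SLC5A7 2.13 ± 1.84 (SE) and ACHE 0.85 ± 0.71 (SE). ISL1 was 0.113, 0.411, 0.427 and 1.57 CPM in controls and 0.7795, 1.70, 2.27 and 2.36 CPM in treated libraries, so that 3 of 4 treated libraries lay above every control. Its log2 fold change was 1.69 ± 0.60 (SE), with an unadjusted p of 0.0233, the 1 member under 0.05, and an adjusted p of 0.504. CARTPT had 2.41 ± 1.15 (SE) (adjusted p = 0.504). Without cervical control 1 the 6 values stayed positive, CHAT having 0.63 ± 1.41 and ISL1 1.34 ± 0.55, and none passed. The median of the 6 values with all libraries was 1.91, against 0.00 over all genes. The values moved with 1 library and with the sex term. Without control 4, the control high in CHAT, CHAT had 4.04 (adjusted p = 0.229), SLC18A3 7.85 (adjusted p = 0.0676) and SLC5A7 5.17 (adjusted p = 0.244) in edgeR, and 0 genes passed. With no sex term CHAT had 0.117.

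In lumbar cord the 6 genes had negative log2 fold changes and again none passed, where 0% of 14361 genes passed, 250 had an unadjusted p under 0.05, none of them a member, and DESeq2 called 6 genes and none of the 6 members. CHAT had -2.81 ± 1.70 (SE), SLC18A3 -2.63 ± 2.09 (SE) and SLC5A7 -3.49 ± 1.62 (SE), each with an adjusted p of 1. ACHE, ISL1 and CARTPT had -0.45 ± 1.17 (SE), -0.63 ± 1.00 (SE) and -0.57 ± 1.21 (SE). Without the 2 libraries that lacked cord markers the spread narrowed, CHAT having -2.30 ± 0.59 (adjusted p = 0.694), SLC5A7 -2.92 ± 0.89 (0.736) and SLC18A3 -1.63 ± 1.06 (0.92). Without control 2, a library with cord markers, CHAT had -0.34 and SLC5A7 -0.61, and SLC18A3, ACHE and ISL1 were positive. With the 2 libraries that lacked cord markers set aside, the 3 controls held 1606 to 2855 CPM of pan-neuron markers and the 3 treated libraries 925 to 1555 CPM, and the part of that difference in the CHAT values was not tested.

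In thoracic cord 2 genes had positive and 4 negative values, between -0.92 ± 0.55 (SE) for SLC5A7 and 0.33 ± 0.39 (SE) for ACHE, and none passed (0% of 14032 genes did, 327 had an unadjusted p under 0.05, none of them a member, and DESeq2 called 28 genes and none of the 6). CHAT had -0.12 ± 0.50 (SE), with an adjusted p of 0.982. With the counts of the 3 regions summed per animal, CHAT was 0.973 to 12.9 CPM in controls and 1.08 to 5.42 CPM in treated animals, which overlapped. The log2 fold change was -0.75 ± 0.51 (SE) (adjusted p = 0.858), and SLC5A7 had -0.67 ± 0.37 (SE). None of the 6 members passed in the summed cord, 0% of 15002 genes did in edgeR (524 had an unadjusted p under 0.05, no member among them), and DESeq2 called 57 genes and no member.

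The opposite signs in cervical and lumbar cord were compared by a test of treatment by region in limma, an F test over the thoracic and lumbar terms with animal as a random block. The lumbar less cervical differences of the treatment effect were -3.79 ± 2.16 (SE) for CHAT, -5.68 ± 2.67 (SE) for SLC18A3, -4.705 ± 2.19 (SE) for SLC5A7 and -3.38 ± 1.78 (SE) for CARTPT. No member and 0% of 14748 genes passed (107 had an unadjusted p under 0.05, none a member). The unadjusted p of the members ran from 0.0554 for CARTPT to 0.465 for ACHE, and every adjusted p was 1. Without the 3 libraries that stood apart the differences were -4.07 ± 1.18 for CHAT and -5.46 ± 1.56 for SLC5A7, again with adjusted p-values of 1. A difference between regions in the treatment effect on these genes thus did not pass the test. In the 3 cord regions and in the summed cord no gene of the identity, choline and receptor lists passed in edgeR or DESeq2. At an unadjusted p under 0.05 in edgeR there were 2, 0 and 3 genes in cervical, 0, 2 and 0 in thoracic, 2, 1 and 0 in lumbar and 3, 1 and 0 in summed cord. The medians of the identity list were 0.22, -0.19, -0.81 and -0.34 in that order.

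**Figure D4:**
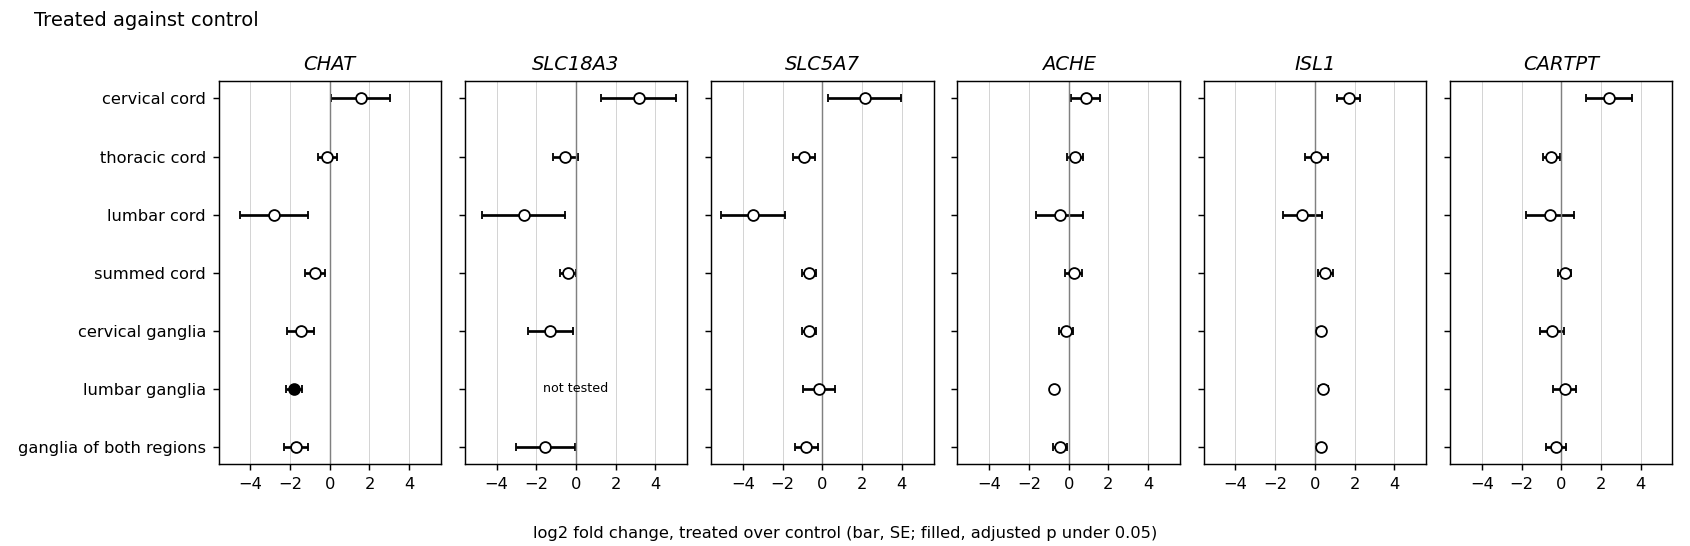
Log2 fold change of each gene in treated over control animals (points, bars SE) in each tissue, in cord counts summed per animal and in the ganglia of both regions fitted together, filled where the adjusted p was under 0.05. The cervical cord points lie to the right of 0 and the lumbar cord points to the left with wide bars, and the 1 filled point is CHAT in lumbar ganglia.

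In lumbar ganglia CHAT was lower in treated animals. The 4 controls held 1.17, 1.715, 1.27 and 0.844 CPM and the 4 treated animals 0.296, 0.221, 0.574 and 0.365 CPM, so the highest treated library lay below the lowest control. The mean fell from 1.25 ± 0.360 CPM (SD, n = 4) to 0.364 ± 0.152 CPM, a log2 fold change of -1.78 ± 0.39 (SE) with an adjusted p of 0.0478 in edgeR. Of 14267 genes tested, 4.29% passed, 3.65% as lower, and 9.46% were lower with no overlap between the groups. The call was near the threshold. It was lost without a filter on low counts (adjusted p = 0.0524) and without any 1 of the 8 animals (adjusted p 0.0601 to 0.143, log2 fold change -2.06 to -1.56). DESeq2 gave CHAT no adjusted p there, with an unadjusted p of 5.4e-05.

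ACHE was also lower without overlap in lumbar ganglia. Controls held 161, 153, 207 and 145 CPM and treated animals 63.2, 122, 110 and 106 CPM. The log2 fold change was -0.72 ± 0.19 (SE), with an adjusted p of 0.0827 in edgeR, which misses the threshold, and of 0.00838 in DESeq2. Without the second treated library of these ganglia ACHE passed in edgeR (-0.91 ± 0.17, adjusted p = 0.0398). SLC5A7, at 21.1, 35, 10.03 and 6.35 CPM in controls and 1.92, 18.4, 24.1 and 12.25 CPM in treated animals, overlapped and had -0.15 ± 0.81 (SE). ISL1 was 46.7, 51.8, 57.7 and 45.3 CPM in controls and 37.7, 88.6, 70.0 and 68.8 CPM in treated animals, where the first treated library was the lowest of the 8 and the 3 others the highest. Its log2 fold change was 0.41 ± 0.23 (SE) (adjusted p = 0.326), and 0.61 ± 0.12 without the first treated library (adjusted p = 0.0365). These ACHE and ISL1 calls each rest on a fit with a library left out. With all libraries 4.29% of all genes passed, and the number of genes varied widely over the fits with an animal left out (closing section). CARTPT had 0.17 ± 0.57 (SE), and SLC18A3 had too few counts to be tested.

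Some neuron markers, though not all, fell with CHAT in these ganglia. The summed pan-neuron level was 3828, 4245, 3374 and 3080 CPM in lumbar controls and 1773, 2487, 2366 and 2538 CPM in treated animals, without overlap. Of its 6 genes 1 passed in edgeR, SNAP25, a protein of transmitter release. It fell by 1.21 ± 0.15 on the log2 scale (adjusted p = 0.0154). STMN2 had -0.62 ± 0.18 (adjusted p = 0.0929 in edgeR), and DESeq2 called both. Mean levels fell from 1556 to 663 CPM for SNAP25 and from 1216 to 777 CPM for STMN2. No other of the 6 fell as far, so the lower sum, also in the ratio below, rested mostly on SNAP25 and STMN2. RBFOX3 and ELAVL3 had -0.56 ± 0.27 and -0.16 ± 0.21, and SYT1 and ELAVL4 -0.00495 ± 0.18 and 0.07 ± 0.22. None of 7 sensory neuron markers passed in edgeR (1 had an unadjusted p under 0.05), and their summed level overlapped, at 2067 to 2972 CPM in controls and 1089 to 3332 CPM in treated animals. Per 1000 CPM of pan-neuron markers CHAT was 0.274 to 0.404 CPM in controls and 0.0887 to 0.243 CPM in treated animals, which did not overlap. Skeletal muscle markers, whose tissue also makes ACHE, summed to 272 and 320 CPM in lumbar ganglia of control animals 1 and 4 and to 11.9 to 148 CPM in the 6 others. Their part in the CHAT and ACHE values was not tested. Control animals 2 and 3 had 17.6 and 11.9 CPM of muscle markers and 153 and 207 CPM of ACHE.

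Of the 3 lists in lumbar ganglia, where 4.29% of all genes passed, 1 of 17 receptor genes passed, CHRNA4, a subunit of the main nicotinic receptor of the brain. It fell by 1.66 ± 0.23 (SE) on the log2 scale, from 4.13 ± 0.388 CPM (SD, n = 4) to 1.30 ± 0.301 CPM, with an adjusted p of 0.016. Of 9 genes of choline supply and breakdown 1 passed, ACLY, which makes the acetyl-CoA of the cytosol. It fell by 0.75 ± 0.14, from 484 ± 52.45 to 286 ± 50.3 CPM (adjusted p = 0.033). Of 20 motor neuron identity genes, SPP1 fell by 1.57 ± 0.27 (adjusted p = 0.0249) and ZEB2 rose by 0.51 ± 0.11 (0.0482). DESeq2 called CHRNA4, ACLY, SPP1 and ZEB2 as well, and also called CHRNA9, LYNX1 and ESRRG as lower. The medians of the receptor, choline and identity lists were -0.02, -0.17 and -0.21, against 0.05 over all genes.

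Cervical ganglia gave CHAT levels of 1.12, 1.60, 1.05 and 0.173 CPM in controls and 0.597, 0.348, 0.364 and 0.0583 CPM in treated animals. Of the controls 3 lay above every treated library, and the fourth was among the lowest of the 8. The log2 fold change was -1.47 ± 0.67 (SE), with an unadjusted p of 0.0594 and an adjusted p of 0.705. None of the 6 genes passed, nor did any of 14173 genes in edgeR (0%, with 1042 at an unadjusted p under 0.05, none a member), and DESeq2 called 225 genes and no member, giving no adjusted p for CHAT and SLC18A3. Of the pathway lists, DESeq2 called CHRNA4 and RET as lower in treated animals. In edgeR CHRNA4 had -1.785 ± 0.467 (SE) (adjusted p = 0.398) and RET -1.122 ± 0.2035 (SE) (adjusted p = 0.294). ISL1 had 0.29 ± 0.20 (SE) and ACHE -0.13 ± 0.37 (SE). The pan-neuron sum was 3799, 3981, 3341 and 1919 CPM in controls and 2051, 2332, 2237 and 1869 CPM in treated animals, and cervical control 4, the control low in CHAT, was also the control low in these markers.

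With the 16 ganglion libraries of both regions fitted together in limma, CHAT had -1.695 ± 0.62 (SE) (unadjusted p = 0.0148, adjusted p = 0.264) and did not pass, while 0.943% of 14535 genes did. The other members had adjusted p-values from 0.619 to 0.89. SPP1 was the 1 gene of the 3 lists that passed there, and fell by 1.37 ± 0.29 on the log2 scale (adjusted p = 0.039). The treated ganglion libraries of the 2 regions share 2 of their animals, and the controls all 4, so the 2 regions are not separate groups of animals. Over these 16 libraries the log2 level of CHAT had an r of 0.822 with SNAP25, 0.633 with SLC5A7 and -0.03 with ISL1, and the points share the difference between treated and control animals.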

How the data were processed

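RNA of 48 libraries was stored in RNAlater, extracted with the miRNeasy kit, made into stranded mRNA libraries and sequenced as paired reads of 50 bases, per the labels' protocols. The deposited values are whole-number read counts per gene, made with featureCounts 1.4.6-p1 on Ensembl 94 annotation of Macaca_fascicularis_5.0, with neither read pairing nor strand set, per the file headers. The submitters' processing notes name STAR 2.5.3a. Without strand, reads of a gene and of an antisense partner cannot be told apart. No sequences were printed, because a genome of this build was not used here.

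Levels are counts scaled to library size with TMM (CPM), and RPKM divides these by the deposited gene length. Treated and control libraries were compared in each tissue with the quasi-likelihood test of edgeR 4.0.16 (R 4.3.3), with TMM, filterByExpr (minimum count 10) and sex as covariate. Cord regions, and ganglia against cord in controls, were compared with animal as a block. Ganglia of both regions, ganglion regions and the test of treatment by region were fitted with limma 3.58.1 (voom, animal as random block). The threshold was a Benjamini-Hochberg adjusted p of 0.05 over all genes. DESeq2 1.42.0 and the other alternatives are given in the closing section. The tests were also run on simulated counts, drawn independently with the same dispersion for every gene. Those counts held no animal effects and no libraries that stood apart, so they do not cover the spread of the genes described here. Counting error is small at these totals except for genes with few counts, where 3 counts were taken as the limit of a count of 0. Mates of a pair are not independent counts, so the true limit may be higher. No 2 libraries held identical values.

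The members and the lists of pathway and marker genes were chosen with earlier results of these data known. Named were the members, in each comparison the genes of each pathway list past the threshold (at most the 4 of smallest p), the 5 genes most like CHAT in cord and ISL1 in ganglia among genes averaging 1 CPM or more, and markers that touch a result. The alternative without thoracic libraries of high mitochondrial share was chosen after seeing the data.

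Same-numbered treated and control animals deviated together in lumbar cord, with correlations of their deviations from the group means of 0.919, 0.192, 0.792 and 0.505. The first of these pairs is that of the 2 libraries lacking cord markers. The labels do not say that the numbers pair animals. A fit with this number as block called 0 genes there, as did the fit without it.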

Additional observations from a re-analysis of the deposited data

Results flagged for a closer look

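Of 60 groups of 4 libraries checked for a library far from the rest, 5 held one. The limit used is passed by about 1 in 20 groups of independent, normally distributed values. These groups share libraries and some hold levels near 0, so that rate does not apply to them. In 4 of these it was control 4 of cervical cord, which lay far above the other controls of that region. It held 17.6 CPM of CHAT, the next control 0.350 CPM. For SLC18A3 the values were 19.4 and 0.1165 CPM, for SLC5A7 263 and 2.90 CPM, and for CARTPT 28.4 and 2.68 CPM. These 4 genes share the library, so they count as 1 observation, and within the 4 treated libraries of cervical cord none stood out. The library was also the highest of its group in pan-neuron markers (2550 CPM), whose part in these values was not tested. The fifth was SLC18A3 in the first treated library of cervical ganglia, at 0.498 CPM (30 counts), the next treated library having 0.0364 CPM (2 counts).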

How the results depend on the processing

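The calls kept under all alternatives run, animals left out one at a time included, were those of CARTPT between lumbar and thoracic cord. Values that changed side or sign follow, and the cause was not tested unless fewer samples or genes give it. DESeq2 called 108 genes in treated cervical cord, 28 in its thoracic and 6 in its lumbar counterpart, 57 in the summed cord, 225 in cervical and 1738 in lumbar ganglia. It called 1082 genes between lumbar and cervical cord, 1 of them a member. Between cervical ganglia and cord it called 2 members (ACHE and ISL1), and in the lumbar pair 2 (ISL1 and SLC18A3) among 5828 genes. Its value for CHAT between lumbar and cervical cord was -0.0137.

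With no filter on low counts 2 genes passed in treated cervical cord, 0 members in lumbar ganglia and 0 between thoracic and cervical cord. CHAT was then -0.00784 between lumbar and cervical cord and SLC18A3 0.0108 between lumbar and cervical ganglia.

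With the replicate number as a block, 206 genes and 0 members passed in lumbar ganglia (CHAT -1.78 had an adjusted p of 0.0926) and 46 genes in ganglia of both regions. It changed no other call. Same-numbered libraries correlated at -0.161 to 0.077 in lumbar and -0.189 to 0.043 in cervical ganglia. In cord 3 of 4 such pairs were positive in the cervical (mean 0.112, lowest -0.226) and thoracic region (mean 0.292, lowest -0.24). With no replicate block, 3870 genes and 0 members passed between thoracic and cervical cord (-0.16 for SLC18A3 and -0.00574 for ACHE), and 4692 genes and 2 members between lumbar ganglia and cord. The values were then 0.56 for SLC18A3 and 0.22 for ACHE between lumbar and thoracic cord and -2.18 for CHAT, -4.065 for SLC18A3 and -2.22 for SLC5A7 between cervical ganglia and cord.

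Without the libraries that stood apart, 0 members passed between thoracic and cervical cord (-0.29 for SLC18A3 and -0.20 for ACHE) and 6 among 5039 genes between lumbar ganglia and cord. Signs turned to 1.135 for SLC18A3, 0.61 for ACHE and 0.39 for ISL1 between lumbar and thoracic cord, 0.25 for SLC5A7 between lumbar and cervical cord, -0.76 for SLC18A3 between cervical ganglia and cord and -0.37 for CARTPT in treated summed cord. Without thoracic libraries of high mitochondrial share 3722 genes and 0 members passed between thoracic and cervical cord, and CARTPT was -0.0619 in treated summed cord, or -0.0179 with no sex term.

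In control animals alone 1743 genes and 0 members passed between thoracic and cervical cord (1.34 for CHAT, 2.39 for SLC5A7 and 0.94 for ISL1), 3160 genes between lumbar and thoracic cord (0.58 for SLC18A3), 0 between lumbar and cervical cord (3.765 for SLC5A7 and 0.75 for ISL1) and 6 between ganglia. In treated animals alone the counts were 0 genes and 0 members (-0.58 for SLC18A3 and -0.14 for ACHE), 1433 (-0.0818 for CHAT and -0.72 for SLC5A7), 0 (-1.74 for CHAT, -1.65 for SLC18A3 and -0.66 for ACHE) and 7 (-0.27 for CHAT and 0.41 for CARTPT). In limma over the 24 cord libraries 24 genes passed for treatment (0.52 for CHAT, 0.46 for SLC18A3 and 0.38 for SLC5A7), and edgeR on ganglion counts summed per animal gave 13 genes.

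Leaving out 1 animal at a time gave 0 to 2 genes in treated cervical ganglia, 18 to 670 genes in treated lumbar ganglia, 3 to 963 genes in treated ganglia of both regions, 4 to 308 genes between lumbar and cervical cord, 9 to 104 genes between lumbar and cervical ganglia, 747 to 6686 genes between cervical ganglia and cord and 0 to 5165 genes between lumbar ganglia and cord. The members called were 0 to 1 in treated lumbar ganglia, 0 to 1 between thoracic and cervical cord, 0 to 3 between cervical ganglia and cord and 0 to 6 between lumbar ganglia and cord. The log2 fold changes that changed sign ranged in treated thoracic cord from -0.38 to 0.25 for CHAT, -0.0699 to 0.61 for ACHE and -0.25 to 0.73 for ISL1. They ranged in treated lumbar cord from -3.62 to 0.44 for SLC18A3, -1.36 to 1.03 for ACHE and -0.95 to 0.70 for ISL1. Their range was in treated cervical ganglia -0.60 to 0.02935 for ACHE. They ranged in treated lumbar ganglia from -0.65 to 0.50 for SLC5A7 and -0.27 to 0.49 for CARTPT. Their range was in treated summed cord -0.0181 to 0.70 for ACHE and -0.14 to 0.34 for CARTPT. They ranged in treated ganglia of both regions from -0.65 to 0.19 for CARTPT. Their range was between thoracic and cervical cord -0.28 to 0.90 for SLC18A3, -0.17 to 0.67 for ACHE and -0.64 to 0.11 for ISL1. They ranged between lumbar and thoracic cord from -0.98 to 0.65 for SLC18A3, -0.38 to 1.32 for SLC5A7, -0.85 to 0.23 for ACHE and -0.81 to 0.20 for ISL1. Their range was between lumbar and cervical cord -0.75 to 0.51 for CHAT, -0.57 to 0.92 for SLC18A3, -1.31 to 0.26 for SLC5A7 and -0.32 to 0.35 for ACHE. They ranged between lumbar and cervical ganglia from -0.62 to 0.79 for SLC18A3. Their range was between cervical ganglia and cord -0.80 to 3.365 for SLC18A3 and -2.18 to 0.17 for CARTPT. Where an arm was left with 3 libraries, the others set the spread.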
